A study of Mus musculus with 4 samples.

Results

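The genes described here are 10 central components of the NF-κB pathway, Nfkb1, Nfkb2, Rel, Rela, Relb, Nfkbia, Map3k14, Chuk, Ikbkb and Tnfaip3. They were found by gene symbol, ignoring case, and checked by Entrez identifier, and make up 10 of the 27179 genes of the deposited table. RNA was sequenced from LTi cells (lymphoid tissue inducer cells), a kind of innate lymphocyte known for its lymphotoxin, isolated from small intestinal lamina propria of C57BL/6 mice. By surface phenotype the sorted cells lacked lineage markers, KLRG1, NK1.1 and NKp46 and were positive for CD127 and CCR6. The 2 Gata3-KO libraries came from Gata3fl/fl mice carrying VavCre and the 2 control (Ctrl) libraries from Gata3+/+ mice. The Vav promoter drives Cre throughout blood cell development, so floxed Gata3 can be lost in other blood cells as well as in LTi cells. The labels give neither the age of the mice nor whether replicates came from separate animals, and p-values therefore reflect no more than the variation among these 4 libraries, part of which can be technical.

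The Gata3-KO libraries held 24315878 and 23973995 reads and the control libraries 14294708 and 12670034 reads. Values are RPKM, reads scaled to the length of the gene and the total of the library. Gata3 itself stood at 34.5 and 23.3 RPKM in Gata3-KO cells and at 84.3 and 50.7 RPKM in control cells, a log2 difference of −1.18 with an adjusted p of 0.0901 in limma. Each value covers the gene as a whole and not just the floxed stretch, which limits its use as a check of the labels. Of the genes that define the sorted cells, Il7r, which codes for CD127, was at 61.2 and 45.7 RPKM in Gata3-KO against 143 and 77.6 RPKM in control libraries, and Ccr6 at 155 and 176 RPKM in Gata3-KO against 146 and 63.3 RPKM in control libraries. The summed markers of B cells and of epithelium were higher in both Gata3-KO libraries than in both control libraries, with values given at the end. The median of the 14221 tested genes lay 0.43 log2 units higher in Gata3-KO cells on the deposited scale. Each member is therefore also given after median-ratio scaling, which divides a library by the median, over genes, of its reads relative to the gene's average, and after which the median gene lay at 0.04.

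NF-κB proteins are dimeric transcription factors held in the cytoplasm by inhibitors of the IκB family. In the canonical branch a kinase complex with the IKKβ subunit marks IκBα for destruction and frees dimers of RelA or c-Rel with the product of Nfkb1. In the non-canonical branch, which receptors such as the lymphotoxin β receptor switch on in stromal cells during lymphoid organ formation, the kinase NIK and IKKα drive processing of the Nfkb2 precursor, which pairs with RelB. LTi cells are the source of lymphotoxin in that exchange and themselves respond to IL-1 and TNF family signals through NF-κB. IκBα and A20 are made in response to NF-κB and shut it off again.

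Genes that NF-κB switches on often carry a κB site near the start of transcription, so a stretch upstream of each member with such a match is shown first. Of Nfkb2 only the stretch before the first of its starts with a sequence is shown. The matches at its other starts with a sequence are given below by position. RefSeq promoter sequences (GRCm38.p6) were at hand for 7 of the 10 members, in 10 windows, since Tnfaip3 and Nfkb2 have more than 1 annotated start. The 250 bases before each start were searched on both strands for the general κB decamer and for a stricter form of it, each match of which also matches the general one. In the lines below, capitals mark matches to the general decamer, and neighbouring matches that overlap run together.
Nfkbia (chr12:55492648-55492897, minus strand): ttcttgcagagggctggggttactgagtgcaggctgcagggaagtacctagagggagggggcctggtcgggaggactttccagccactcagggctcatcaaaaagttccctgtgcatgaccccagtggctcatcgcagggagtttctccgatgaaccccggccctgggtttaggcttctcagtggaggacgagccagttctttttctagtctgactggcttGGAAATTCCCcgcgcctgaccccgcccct
Tnfaip3 (chr10:19015411-19015660, minus strand): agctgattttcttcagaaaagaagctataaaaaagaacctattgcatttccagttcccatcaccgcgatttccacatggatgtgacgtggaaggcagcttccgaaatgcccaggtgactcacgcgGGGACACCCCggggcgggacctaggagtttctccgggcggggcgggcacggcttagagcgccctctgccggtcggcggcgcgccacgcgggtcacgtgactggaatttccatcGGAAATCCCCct
Nfkb2 (chr19:46304487-46304736, plus strand): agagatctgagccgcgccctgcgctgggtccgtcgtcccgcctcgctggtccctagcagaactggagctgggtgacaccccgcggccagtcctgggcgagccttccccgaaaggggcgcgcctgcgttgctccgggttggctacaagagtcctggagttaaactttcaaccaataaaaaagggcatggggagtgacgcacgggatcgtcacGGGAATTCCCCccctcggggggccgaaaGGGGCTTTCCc
Rel (chr11:23770970-23771219, minus strand): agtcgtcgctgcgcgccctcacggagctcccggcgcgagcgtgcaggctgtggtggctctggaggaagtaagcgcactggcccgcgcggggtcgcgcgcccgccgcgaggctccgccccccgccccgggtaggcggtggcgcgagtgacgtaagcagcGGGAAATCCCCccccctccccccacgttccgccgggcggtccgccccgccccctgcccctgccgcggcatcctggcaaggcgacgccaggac

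The single match of Nfkbia covered positions −29 to −20, counted from the start site, and fitted the strict form. Tnfaip3 had matches at −125 to −116 and at −12 to −3 from its upstream start. Nfkb2 had an overlapping pair over −39 to −29 and another match at −11 to −2 from the first of its starts with a sequence. Its other 2 starts with a sequence had a strict match each, at −236 to −227 and at −225 to −216. The annotated Nfkb2 gene begins at 46300994, upstream of the first of these windows at 46304487 to 46304736. No sequence before that first base was at hand, and it was not searched. Rel had an overlapping pair over −92 to −82. No match lay in the windows of Rela, Chuk and Map3k14 or in that of the other Tnfaip3 start. In all, 4 of the 7 members had a match in at least 1 window, against 8.23% of 27025 genes in the table. Among the further pathway lists described below, the share ran from 10% of ligands to 41.2% of genes that NF-κB is known to induce. A gene with more windows had more bases searched. The strict form was found in 1.21% of all 32851 windows and the general one in 7.25%. These are matches of letters and not measured binding sites.

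**Figure D1:**
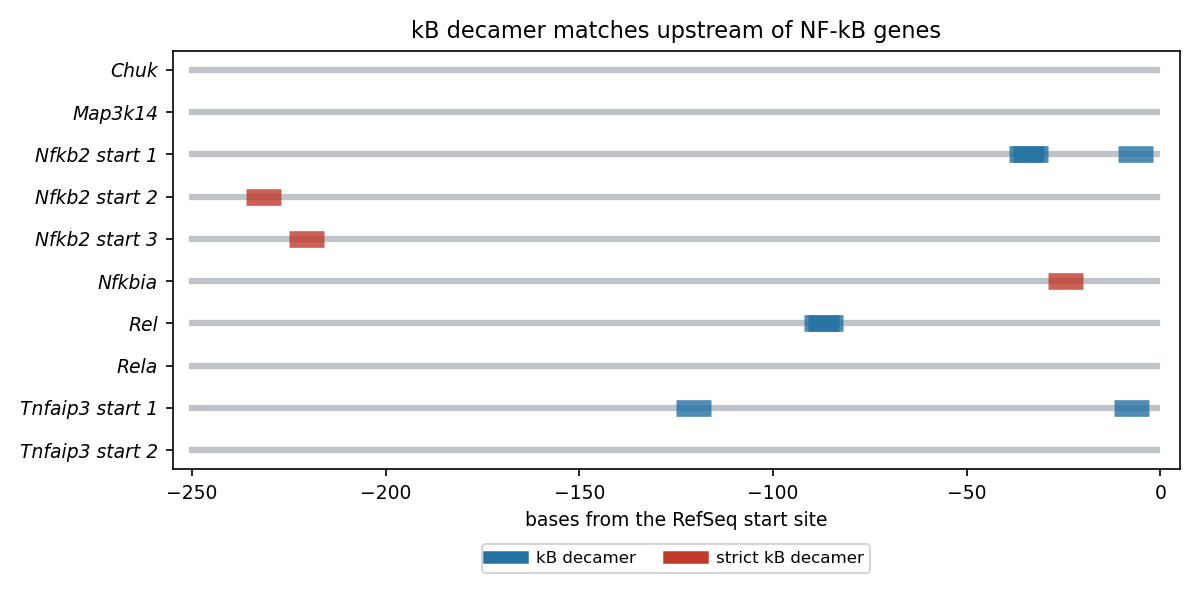
Positions of κB decamer matches (blue, general form; red, strict form) in the 250 bases before each RefSeq start site with a sequence, for 7 NF-κB genes. Positions are bases from the start site. Only starts with a sequence are numbered along the gene, and for Nfkb2 these all lie inside the annotated gene. Matches lie upstream of Nfkbia, Nfkb2, Rel and the first start of Tnfaip3, the one of Nfkbia at −29 to −20.

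The level of the 10 genes spanned a wide range that was shared by the genotypes. Nfkbia was highest and Tnfaip3 second in every library, followed by Nfkb2, Relb and Rela in that order in all 4 libraries. These 5 did not overlap with their neighbours within a genotype. Nfkb1, Rel and Map3k14 took places 6 to 8 in an order that changed between libraries, and the ranges of Rel overlapped with those of Nfkb1 in both genotypes and with that of Map3k14 in control cells. Ikbkb was always ninth and Chuk always last. Nfkbia and Tnfaip3 together made up 70.6% and 72.2% of the summed RPKM of the 10 genes in Gata3-KO and 75.8% and 67.4% in control libraries. Among tested genes, the lowest percentile of any member but Chuk was 83.7, that of Ikbkb in Gata3-KO replicate 2, while Chuk lay between 37.9 and 46.9 over the 4 libraries.

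**Figure D2:**
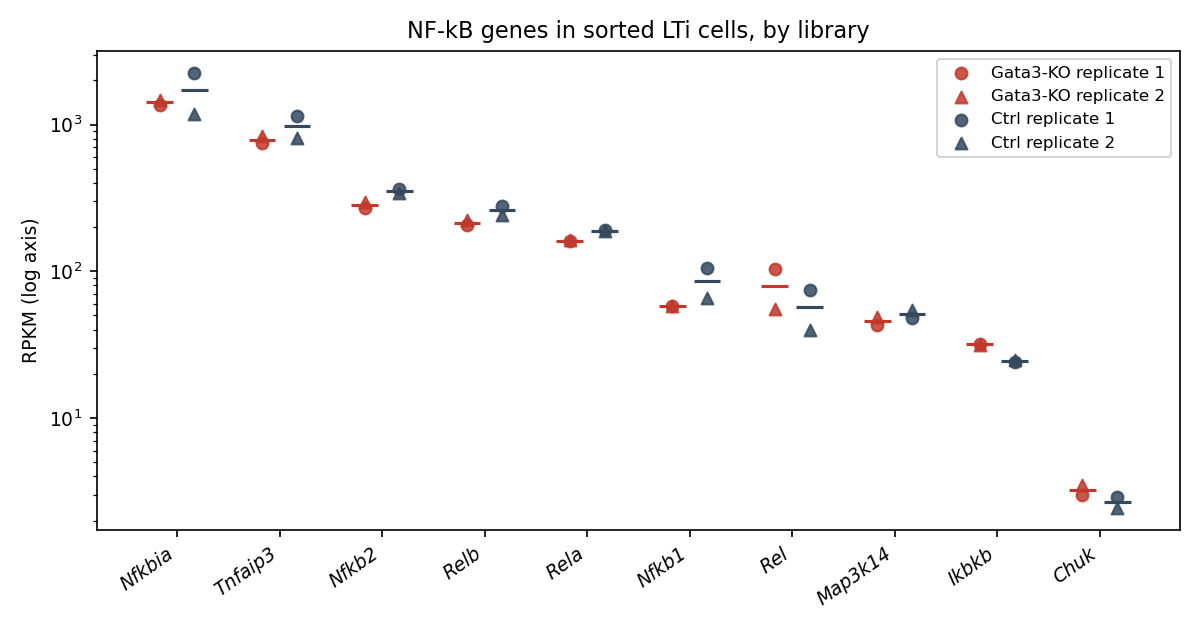
RPKM (log axis) of the 10 NF-κB genes in the Gata3-KO (red) and Ctrl (dark) libraries, with 1 point per library and a short line at the group mean (n = 2). The order from Nfkbia down to Rela is the same in all libraries, and Chuk is lowest at 2.44 to 3.49 RPKM.

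The feedback inhibitors overlapped between genotypes as deposited. With median-ratio scaling, described further on, both were lower in each Gata3-KO library than in each control library. limma called neither of them on either scale. Nfkbia codes for IκBα (Entrez 18035, chromosome 12: 55489409 to 55492647, GRCm38). It was measured at 1365 and 1468 RPKM in Gata3-KO cells and at 2263 and 1174 RPKM in control cells, and the Gata3-KO values lay between the control values. The means were 1417 ± 73.1 RPKM in Gata3-KO and 1718 ± 770 RPKM in control cells (SD, n = 2 each), with a log2 difference of −0.20 ± 0.42 (SE, as for all log2 differences) and an adjusted p of 0.78 in limma. Control replicate 1 was the highest library, and without it the difference turned to 0.27 (adjusted p = 0.627 in limma). Tnfaip3 codes for A20, a ubiquitin-editing enzyme that ends signalling from TNF and IL-1 receptors (Entrez 21929, chromosome 10: 19000910 to 19015410). It stood at 747 and 829 RPKM in Gata3-KO cells and 1143 and 815 RPKM in control cells. Gata3-KO replicate 2 was above control replicate 2, so the genotypes overlapped. The log2 difference was −0.29 ± 0.34 with an adjusted p of 0.597 in limma, and −0.05 without control replicate 1.

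Of the subunits of the canonical branch, Rela and Nfkb1 were lower in both Gata3-KO libraries on the deposited scale, and Rel overlapped between genotypes. limma called none of them. Rela (Entrez 19697, chromosome 19: 5637442 to 5648134), the main activating subunit, varied little within genotypes, at 161 and 163 RPKM in Gata3-KO and 190 and 188 RPKM in control libraries. Both Gata3-KO libraries were lower, with a log2 difference of −0.22 ± 0.26 (adjusted p = 0.607 in limma). Nfkb1 (Entrez 18033, chromosome 3: 135584655 to 135691969) codes for the precursor p105, from which the DNA-binding p50 subunit is made. It was at 57.6 and 57.7 RPKM in Gata3-KO cells and at 104 and 66.0 RPKM in control cells. The Gata3-KO libraries lay close together and below both control libraries, which were themselves apart, and the log2 difference of −0.52 ± 0.31 had an adjusted p of 0.309 in limma. Rel (Entrez 19696, chromosome 11: 23736847 to 23770969) codes for c-Rel, the subunit best known from lymphocytes. It was at 104 and 55.6 RPKM in Gata3-KO and 74.8 and 39.6 RPKM in control libraries. In each genotype replicate 1 was well above replicate 2, by more than the gap between the means of 79.8 ± 34.3 RPKM in Gata3-KO and 57.2 ± 24.9 RPKM in control cells (SD, n = 2 each), and the log2 difference was 0.48 ± 0.44 (adjusted p = 0.504 in limma).

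The subunits of the non-canonical branch were both lower in each Gata3-KO library than in each control library, but did not pass the test. Nfkb2 (Entrez 18034, chromosome 19: 46300994 to 46312400) codes for p100, which is at once an inhibitor and the precursor of p52. It was at 272 and 298 RPKM in Gata3-KO cells and 365 and 342 RPKM in control cells, with means of 285 ± 18.8 RPKM in Gata3-KO and 353 ± 16.7 RPKM in control cells (SD, n = 2 each). Its log2 difference was −0.31 ± 0.28, with an adjusted p of 0.498 in limma. Relb (Entrez 19698, chromosome 7: 19606217 to 19629438), the partner of p52, was at 205 and 224 RPKM in Gata3-KO cells and 279 and 243 RPKM in control cells. Its log2 difference was −0.28 ± 0.28, with an adjusted p of 0.542 in limma.

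The kinases had lower mean RPKM in both genotypes than the subunits and inhibitors. Map3k14 (Entrez 53859, chromosome 11: 103219764 to 103267401) codes for NIK, whose protein is known to be kept low by constant degradation. It stood at 43.1 and 49.0 RPKM in Gata3-KO and 48.3 and 54.1 RPKM in control libraries, with overlapping genotypes and a log2 difference of −0.15 ± 0.26 (adjusted p = 0.734 in limma). Ikbkb (Entrez 16150, chromosome 8: 22659205 to 22706589), which codes for IKKβ, was at 32.1 and 31.5 RPKM in Gata3-KO cells and 24.2 and 25.0 RPKM in control cells. Both Gata3-KO libraries were higher on the deposited scale and lower after median-ratio scaling, with a deposited log2 difference of 0.36 ± 0.25 (adjusted p = 0.38 in limma). Chuk (Entrez 12675, chromosome 19: 44073334 to 44107505), which codes for IKKα, had only 253 and 293 reads in Gata3-KO and 144 and 108 reads in control libraries. That came to 2.97 and 3.49 RPKM in Gata3-KO cells and 2.88 and 2.44 RPKM in control cells, a log2 difference of 0.21 ± 0.32 (adjusted p = 0.694 in limma) that also changed sign with median-ratio scaling. Pseudocount 1 understates fold changes of a gene this low.

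Over the 10 members, limma called 0 at an adjusted p below 0.05, against 9.03% of all tested genes, and 0 members had an unadjusted p below 0.05, against 30.6% of all. limma-voom on reads recovered from the values, without median-ratio scaling, likewise called 0 and had 0 at an unadjusted p below 0.05. With median-ratio scaling limma-voom called 0 and had 7 at an unadjusted p below 0.05, against 3043 of the 14221 tested genes. All 10 members passed the filter on low values. The 95% intervals of limma all spanned 0 and were wide. They ran from −1.27 to 0.24 log2 units for Nfkb1, from −0.99 to 0.37 for Nfkb2, from −0.86 to 0.42 for Rela and from −0.59 to 1.54 for Rel. On the deposited scale 4 members (Nfkb1, Nfkb2, Rela and Relb) were lower in both Gata3-KO than in both control libraries, against 7.58% of tested genes, and 2 (Chuk and Ikbkb) were higher, against 54.0%. Relative to the median gene 9 of the 10 lay lower, all but Rel, and their median was −0.21 where that of all tested genes was 0.43.

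Median-ratio scaling moved all 10 members down. All 10 log2 differences were then negative, against 47.3% of tested genes, and those of Rel, Chuk and Ikbkb had changed sign, to −0.11, −0.23 and −0.22. All but Rel were lower in both Gata3-KO libraries, against 25.6% of tested genes, and none was higher in both, against 29.7%. These shares, like those on the deposited scale, are over tested genes of all levels and were not matched to the high level of most members. Nfkb1 lay at −1.11 ± 0.25, Nfkb2 at −0.90 ± 0.20, Tnfaip3 at −0.89 ± 0.24, Relb at −0.87 ± 0.20, Rela at −0.82 ± 0.20, Nfkbia at −0.80 ± 0.33 and Map3k14 at −0.73 ± 0.22. limma still called 0 members, against 1.03% of tested genes, and the lowest adjusted p was that of Nfkb2 at 0.0928. An unadjusted p below 0.05 was reached by 6 members, Nfkb1, Nfkb2, Rela, Relb, Map3k14 and Tnfaip3, against 22.7% of tested genes. On this scale Nfkb2 read 232 and 231 RPKM in Gata3-KO and 425 and 444 RPKM in control libraries, and Nfkbia 1163 and 1139 RPKM in Gata3-KO against 2631 and 1527 RPKM in control libraries. Whether the deposited or the median-ratio scale is nearer to RNA per LTi cell was not tested, and in bulk samples fewer cells of a type and less RNA per cell cannot be told apart.

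**Figure D3:**
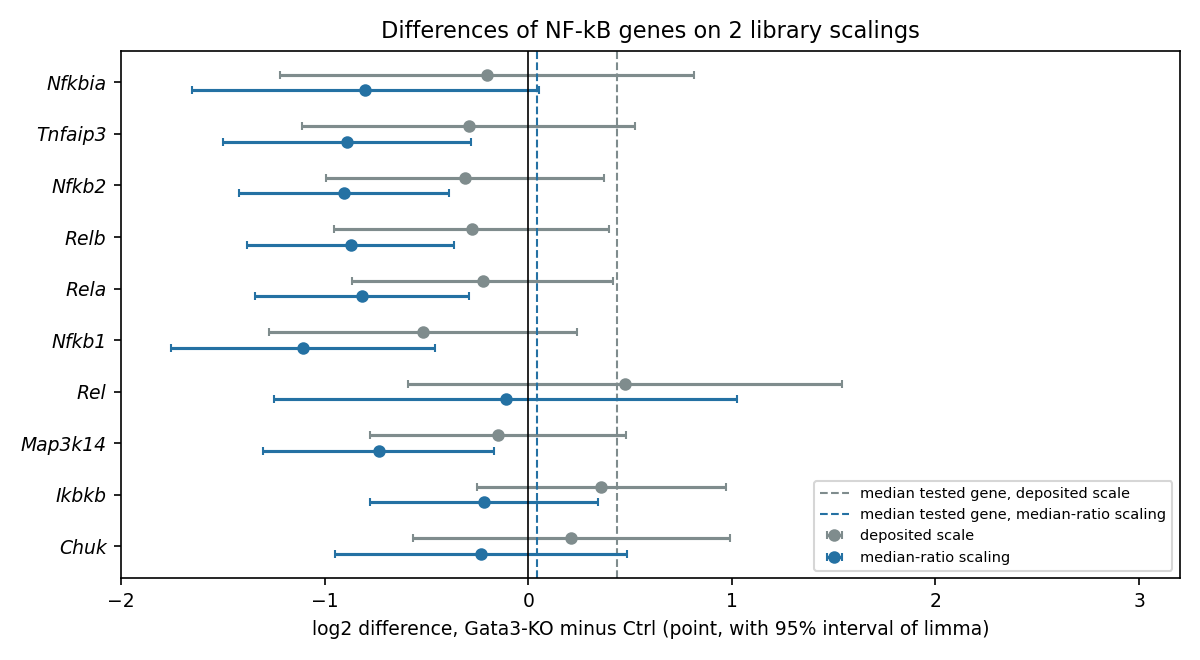
log2 differences (Gata3-KO minus Ctrl) of the 10 NF-κB genes with 95% intervals of limma, on the deposited scale (grey) and after median-ratio scaling (blue), with dashed lines at the median tested gene. On the deposited scale every interval spans 0, and after median-ratio scaling all 10 points are negative, from −1.11 to −0.11.

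Ratios between members within a library do not depend on how libraries are scaled. Nfkb2 stood at 4.72 and 5.17 times the RPKM of Nfkb1 in Gata3-KO and at 3.50 and 5.17 times in control libraries. Relb stood at 1.27 and 1.38 times Rela in Gata3-KO and at 1.47 and 1.29 times in control libraries. In both ratios the genotypes overlapped, as they did for Ikbkb over Chuk, at 10.8 and 9.02 in Gata3-KO and 8.41 and 10.2 in control libraries. Nfkbia over Rela was 8.47 and 9.02 in Gata3-KO and 11.9 and 6.23 in control libraries, again overlapping. Rel over Rela was 0.646 and 0.342 in Gata3-KO and 0.394 and 0.210 in control libraries, and the genotypes overlapped. Tnfaip3 over Nfkbia also overlapped, at 0.547 and 0.565 in Gata3-KO and 0.505 and 0.694 in control libraries. Map3k14 over Chuk was the only one of these ratios that did not overlap, at 14.5 and 14.0 in Gata3-KO and 16.8 and 22.2 in control libraries. It rests on 108 to 293 reads of Chuk per library. How often ratios of other gene pairs do not overlap was not worked out.

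Calls in the lists of further pathway genes, given next, are to be read beside the 9.03% of all tested genes that limma called in either direction. Of 6 further IκB family genes limma called none, against 8.34% of tested genes called higher and 0.689% called lower. The list had a median log2 difference of −0.26, and once scaled by median ratio 5 of the 6 were lower in both Gata3-KO libraries, against 25.6% of tested genes. Nfkbiz, which codes for the nuclear IκBζ, was at 284 and 336 RPKM in Gata3-KO and 485 and 348 RPKM in control libraries (log2 difference −0.41, adjusted p = 0.426 in limma). Bcl3, a nuclear IκB protein that binds p50 and p52, was at 18.9 and 31.7 RPKM in Gata3-KO against 11.1 and 23.2 RPKM in control libraries, with overlapping genotypes. Of 19 upstream kinases and their partners 1 rose, Tab1, which codes for an adaptor of the kinase TAK1, at 7.71 and 8.05 RPKM in Gata3-KO and 1.65 and 2.21 RPKM in control cells (log2 1.61, adjusted p = 0.0358 in limma). Of 24 genes of ubiquitin editing and TRAF adaptors 1 rose, Traf5, at 21.7 and 11.9 RPKM in Gata3-KO against 0.965 and 4.02 RPKM in control libraries (log2 2.45, adjusted p = 0.0457 in limma). Ikbke, which codes for a kinase related to the IKKs, did not pass at 19.5 and 13.9 RPKM in Gata3-KO against 7.34 and 9.02 RPKM in control libraries (adjusted p = 0.108 in limma), nor did Tnip2, a partner of A20, at 18.5 and 21.6 RPKM in Gata3-KO against 9.36 and 6.95 RPKM in control libraries (adjusted p = 0.0561 in limma). The median log2 difference was 0.18 for the kinase list and 0.19 for the ubiquitin and TRAF list.

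Among 27 receptors and adaptors 1 rose, against 8.34% of tested genes called higher, and 1 fell, against 0.689% called lower. Tnfrsf13c, the BAFF receptor of B cells and an activator of the non-canonical branch, was at 16.8 and 23.9 RPKM in Gata3-KO and 0.220 and 2.48 RPKM in control cells (log2 3.35, adjusted p = 0.0254 in limma). Tnfrsf9, the receptor 4-1BB and itself an NF-κB target, was at 46.1 and 40.4 RPKM in Gata3-KO and 127 and 112 RPKM in control cells (log2 −1.44, adjusted p = 0.0319 in limma). It was the only gene of the pathway lists called after median-ratio scaling, at −2.03 (adjusted p = 0.0417 in limma). Among 10 tested ligands Il18 rose (log2 1.44, adjusted p = 0.048 in limma), at 3.13 and 3.81 RPKM in Gata3-KO and 0.485 and 0.820 RPKM in control cells. It rested on few reads, 66 and 79 in Gata3-KO and 6 and 9 in control libraries. With limma-voom and median-ratio scaling its adjusted p was 0.323. Lta, a lymphotoxin chain, was at 20.0 and 29.5 RPKM in Gata3-KO against 48.3 and 41.8 RPKM in control libraries and did not pass (log2 −0.86, adjusted p = 0.118 in limma).

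Of 43 tested genes that NF-κB is known to induce, 2 rose and 1 fell, against 8.34% of tested genes called higher and 0.689% called lower. Their median log2 difference was 0.08, where that of all tested genes was 0.43. Irf4, a transcription factor of activated lymphocytes and plasma cells, was at 24.6 and 14.0 RPKM in Gata3-KO and 0.538 and 1.80 RPKM in control libraries (log2 3.24, adjusted p = 0.0194 in limma). Myc, a regulator of growth, was at 67.3 and 80.2 RPKM in Gata3-KO against 4.67 and 16.6 RPKM in control libraries (log2 2.90, adjusted p = 0.0358 in limma). The gene that fell was again Tnfrsf9. All calls in these lists rest on 4 libraries, since limma called 0 genes on the deposited scale when any 1 library, Gata3-KO or control, was left out. After median-ratio scaling the median of the induced genes was −0.52, where that of all tested genes was 0.04. On that scale 20 of the 43 were lower in both Gata3-KO libraries, against 25.6% of tested genes, and 4 were higher in both, against 29.7%. The pathway lists share genes, among them Nfkbiz, Nfkbie, Bcl3, Traf1 and Lta, so their counts are not independent of each other. The targets of the non-canonical branch are mostly genes of stromal cells. Cxcl13, Ccl19, Ccl21a and Glycam1 had no reads in any library, and only 2 of the 8 could be tested, neither of which was called. Tnfsf11, which codes for RANKL, was at 101 and 120 RPKM in Gata3-KO and 121 and 187 RPKM in control libraries, and Madcam1 at 0.898 and 0.764 RPKM in Gata3-KO against 0.0493 and 2.61 RPKM in control libraries.

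**Figure D4:**
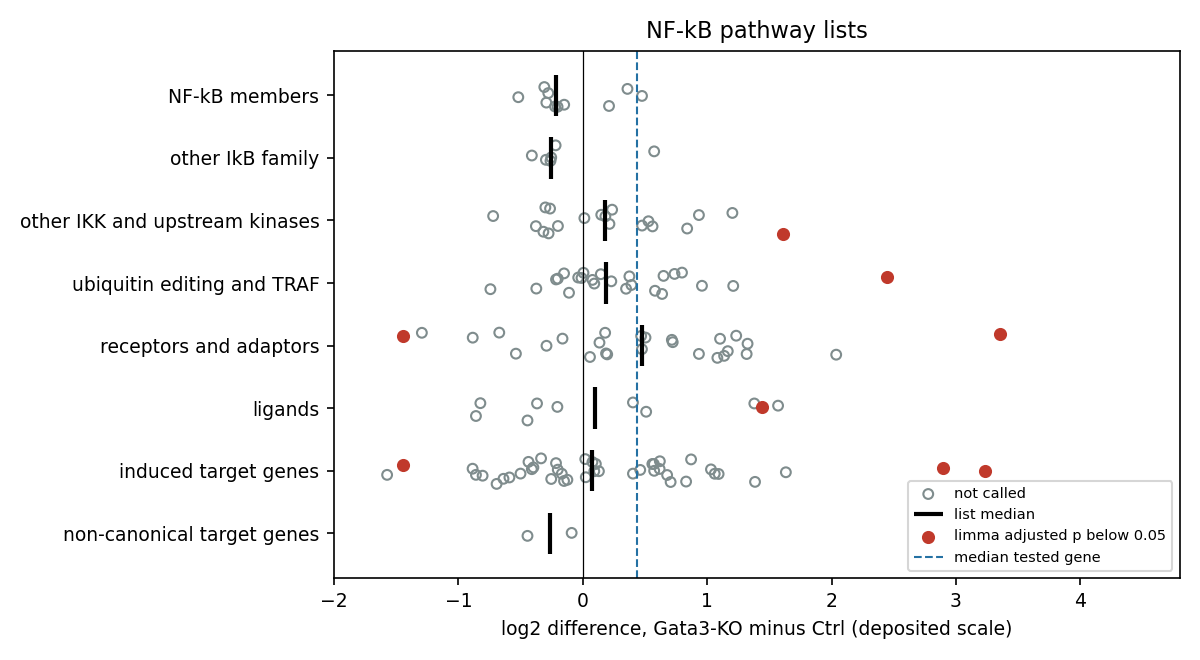
log2 differences (Gata3-KO minus Ctrl, deposited scale) of tested genes in the NF-κB lists, 1 point per gene, red where limma's adjusted p was below 0.05, with the list median (black bar) and the median tested gene (dashed line). The 10 members have no red point and a median of −0.21, and the called genes of the other lists lie at −1.44 or between 1.44 and 3.35.

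In the same libraries the summed markers of B cells, epithelium and T cells were higher in both Gata3-KO libraries. Those of myeloid and of stromal cells overlapped between genotypes. Of 23 tested B and plasma cell markers 20 were called higher in limma, against 8.34% of all tested genes, and their summed RPKM was 4739 and 3043 in Gata3-KO and 360 and 553 in control libraries. Of 25 epithelial markers 17 were called higher, against the same 8.34%, with sums of 5045 and 8502 in Gata3-KO and 1732 and 1813 RPKM in control libraries. The most abundant B cell markers were Jchain and Ighm, with Jchain at 2128 and 793 RPKM in Gata3-KO against 144 and 289 RPKM in control libraries and Ighm at 1062 and 638 RPKM in Gata3-KO against 17.2 and 39.6 RPKM in control libraries. Of the most abundant epithelial markers Tff3 was at 1764 and 2027 in Gata3-KO and 263 and 153 RPKM in control cells, and Lyz1, which can share reads with Lyz2, at 468 and 1378 RPKM in Gata3-KO against 747 and 1140 RPKM in control libraries. After median-ratio scaling 3 B cell and 6 epithelial markers were called higher, where 0.598% of all tested genes were called higher and 0.436% lower. On that scale 23 B cell and 21 epithelial markers were still higher in both Gata3-KO libraries, against 29.7% of tested genes. Their median log2 differences were then 2.65 and 1.98. Of 19 tested T cell markers 6 were called higher and 1 lower, against 8.34% and 0.689% of all tested genes, with sums of 1310 and 806 RPKM in Gata3-KO and 749 and 650 RPKM in control libraries. Zap70 and Lat led the T cell list. Zap70 was at 175 and 153 RPKM in Gata3-KO against 238 and 204 RPKM in control libraries, and Lat at 144 and 250 RPKM in Gata3-KO against 72.4 and 48.3 RPKM in control libraries. The 24 myeloid and dendritic cell genes summed to 796 and 1066 in Gata3-KO and 1043 and 825 RPKM in control libraries. Of the 21 that were tested, 3 were called higher and 0 lower in limma, their median log2 difference was 0.87, and 10 were higher and 3 lower in both Gata3-KO libraries, against 54.0% and 7.58% of tested genes. The 14 stromal and endothelial genes summed to 42.1 and 70.4 RPKM in Gata3-KO against 42.8 and 102 RPKM in control libraries. Fcer1g was at 206 and 226 RPKM in Gata3-KO and 623 and 390 RPKM in control libraries, Bst2 at 298 and 273 RPKM in Gata3-KO against 216 and 189 RPKM in control libraries, Pecam1 at 27.3 and 18.7 RPKM in Gata3-KO against 23.9 and 24.8 RPKM in control libraries, and Pdgfrb at 7.97 and 22.8 RPKM in Gata3-KO against 14.2 and 5.10 RPKM in control libraries. No marker of the B cell, T cell, myeloid or epithelial list was at 0 in both libraries of a genotype, and the endothelial genes Cdh5 and Vwf had no reads in either control library. The 24 LTi and ILC3 genes summed to 2404 and 2981 in Gata3-KO and 6108 and 4134 RPKM in control libraries. This list includes the deleted gene Gata3, which was lower in both Gata3-KO libraries. It also shares genes with the pathway lists, among them Lta and Tnfsf11. Of the 23 tested, limma called 1 higher and 2 lower, against 8.34% and 0.689% of all tested genes. Their median log2 difference was −0.35 as deposited, with 9 lower and 5 higher in both Gata3-KO libraries, against 7.58% and 54.0%. Median-ratio scaling put that median at −0.93, with 16 lower and 2 higher, against 25.6% and 29.7%. The 10 members had medians of −0.21 as deposited and −0.81 once scaled in this way. Whether the members and the LTi and ILC3 genes differed was not tested. B cells, T cells, myeloid cells and epithelium also express NF-κB genes. The part of these cells in the values of the 10 members, of Tnfrsf13c, Traf5, Il18, Irf4 and Myc, and in the shift of the median gene was not tested. The sum of the 10 NF-κB genes, at 2990 and 3180 in Gata3-KO and 4494 and 2948 RPKM in control libraries, overlapped between genotypes.

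**Figure D5:**
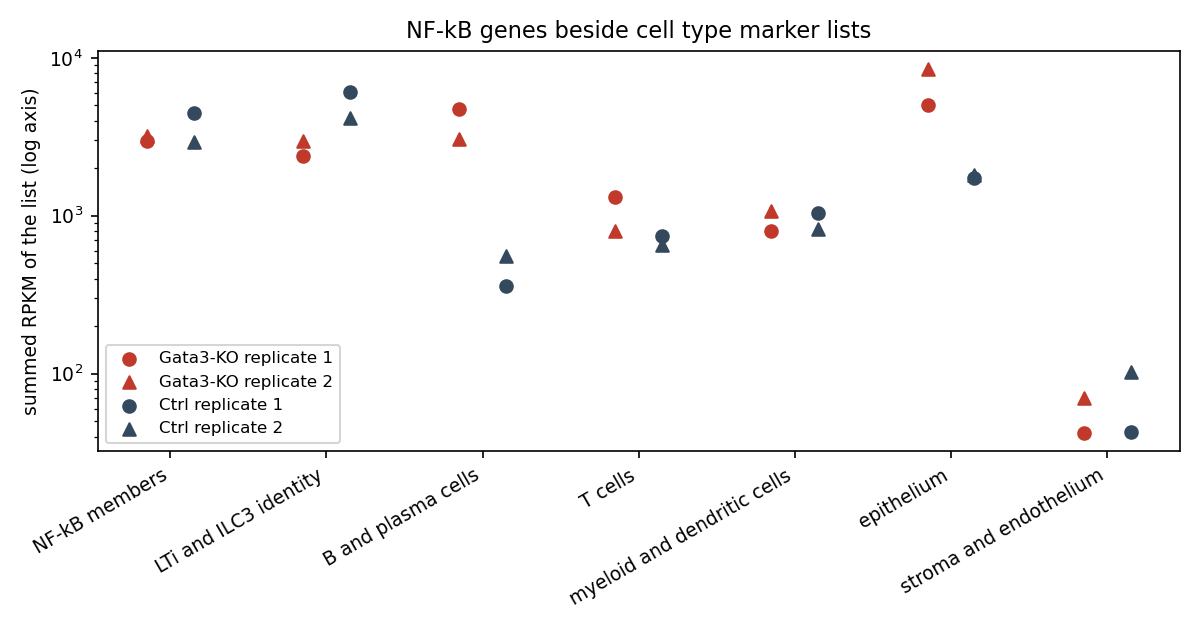
Summed RPKM (log axis) of the 10 NF-κB genes and of 6 cell type lists in each Gata3-KO (red) and Ctrl (dark) library, 1 point per library. The B cell and epithelial sums are higher in both Gata3-KO libraries and the LTi and ILC3 sum is lower in both, while the NF-κB sum overlaps between genotypes.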

How the data were processed

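RNA was extracted with a miRNeasy Micro kit and libraries were made by Smart-seq2, per the labels' protocols. That method uses no molecular identifiers, so the precision given by depth covers counting error only. Subread, featureCounts and the build mm10 are named in the submitters' processing notes; their versions, the annotation, the strand setting and the treatment of multiply mapped reads were not given in any source used here. In the deposited table the unit is log2(RPKM + 1) plus 0.0001, as worked out from the values, scaled by the authors to each library's own total only. This total can shift all genes of a library when a few abundant genes change.

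Reads were recovered as whole multiples of what 1 read is worth, at the gene length that made all 4 libraries whole within 0.0001 reads (smallest such length unless the annotated one worked), for all 19047 genes with reads, and summed to between 98.7% and 99.1% of the library totals. A read number could be a multiple of the one recovered. Depth ranged from 12670034 to 24315878 reads, and 3 reads came to between 0.123 and 0.237 CPM.

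The comparison was planned for either unit, and limma 3.58.1 (R 4.3.3; trend, robust, two-sided, Benjamini-Hochberg over all tested genes, threshold 0.05) was run on log2(RPKM + 1). Tested were 14221 genes with at least 0.523 CPM in 2 libraries and 15 reads in total. Scripts were tested on simulated data. Symbols and coordinates came from RefSeq GRCm38.p6. Other steps ran in Python 3.11.15, with figures by matplotlib 3.10.9. Named genes were all members, Gata3, 2 genes of the sorted cells (another is not reported here), and per pathway list up to 4 called genes, filled with the lowest adjusted p up to 2, and 2 abundant genes per list of other cell types. The members and lists were chosen with earlier results of these data known. Alternatives were median-ratio and upper-quartile scaling, a pseudocount of 0.1, 5 CPM as the filter or none, limma-voom with the recovered reads, a replicate block and leaving out each library, the last 3 also with median-ratio scaling.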

Additional observations from a re-analysis of the deposited data

How the results depend on the processing

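Under 17 alternatives, 170 fits of the 10 members gave 0 calls, and the lowest adjusted p was 0.0751, for Nfkb1 with median-ratio scaling and without control replicate 2. Leaving out a library is a fit with 3 libraries, in which the lone library of a genotype is assumed to vary like the others. With median-ratio, upper-quartile and limma-voom with median-ratio scaling Rel lay at −0.11, −0.079 and −0.13, Chuk at −0.23, −0.21 and −0.32, and Ikbkb at −0.22, −0.19 and −0.22. Nfkb1, Nfkb2, Rela, Relb, Map3k14 and Tnfaip3 kept their sign in every fit. Of other named genes, Bst2 lay at −0.10, −0.068, −0.10 and −0.10 with median-ratio, upper-quartile, limma-voom with median-ratio and the replicate block with median-ratio scaling. Madcam1 turned to 0.55 with a pseudocount of 0.1, to 1.04 with limma-voom and to 0.55 with limma-voom and median-ratio scaling. Over the fits without 1 library on both scales, values ran from −0.61 to 0.93 for Rel, from −1.21 to 0.27 for Nfkbia, from −0.28 to 0.30 for Chuk, from −0.34 to 0.38 for Ikbkb, from −0.35 to 1.37 for Ccr6, from −0.59 to 1.07 for Bcl3, from −1.43 to 0.80 for Madcam1, from −0.22 to 0.59 for Bst2, from −1.50 to 0.58 for Lyz1, from −0.99 to 0.16 for Pecam1 and from −0.56 to 1.31 for Pdgfrb.

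limma called 1284 genes (1186 higher, 98 lower) on the deposited scale. It called 147 (85, 62) with median-ratio scaling, 186 with upper-quartile scaling, 852 with a pseudocount of 0.1, 1715 (1582, 133) with a filter of 5 CPM, 223 with limma-voom and 93 (28, 65) with limma-voom and median-ratio scaling. Without a filter limma called 0 of 19047 genes, with 4336 at an unadjusted p below 0.05, while limma-voom with the filter called 223. Leaving out any 1 library gave 0 calls on the deposited scale (2423 to 3815 at an unadjusted p below 0.05) and 0 to 34 with median-ratio scaling. The cause of the changes was not tested, and the fits without 1 library also had fewer libraries. The replicate block, fitted because the labels reuse the numbers 1 and 2, gave 1056 calls, and 26 with median-ratio scaling. With the block Rel, Chuk and Ikbkb lay at −0.11, −0.23 and −0.22 on that scale. Nothing in the labels pairs the numbers, and same-numbered libraries did not deviate together (r = −0.02 across genes, which are not independent). Among the 10 members Chuk had the fewest reads, 108 to 293 per library.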
